A study of Mus musculus with 18 samples.

Results

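Cultured mouse mast cells lacking Dnmt3a, an enzyme that places new DNA methylation, were compared after 24 h of stimulation through IgE and without stimulation. The comparison rests on 6 of the 18 arrays of the series: the 3 labelled 24 h of IgE treatment and the 3 labelled untreated, from knockout cultures 3, 4 and 6, as the numbers in the titles were read. They were chosen by the sample titles alone, and the arrays of a culture were paired. Messenger RNA was measured on Illumina mouse bead arrays.

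All groups used were mast cells of female mice. The comparison set knockout cells after 24 h of IgE (3 arrays) against untreated knockout cells (3 arrays). Knockout cells after 4 h of IgE (3 arrays) gave the time course, and wild-type cells untreated or after 24 h (3 arrays each, cultures 6, 8 and 9) gave the values beside which the knockout values are set. The treatment label names IgE alone, while the study's design text speaks of IgE and antigen. The labels carry the term 5 weeks without saying whether this is the age of the mice or of the cultures. They give neither the strain, nor how Dnmt3a was deleted, nor whether a numbered culture came from 1 mouse. The p-values therefore speak for these cultures only. They rest on how the changes between conditions varied from culture to culture, pooled over both genotypes, with each culture's own level taken out.

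Mast cells bind IgE through a high-affinity receptor. When antigen crosslinks it, they release granules within minutes, make lipid mediators, and then transcribe chemokines, which attract leukocytes, and cytokines over hours. Inhibitory receptors, adaptors and phosphatases damp the signal, and many early transcripts are short-lived.

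The arrays looked alike in depth and differed in background. Median probe signals on the 6 arrays ran from 93.4 to 159, and between 28.7% and 32.7% of probes were above an array's detection limit. In each culture the 24 h array had a higher median signal than the untreated array, with 103 against 93.4 in culture 3, 153 against 140 in culture 4 and 159 against 125 in culture 6. The untreated knockout arrays lay at position D of their slide and the 24 h arrays at E or F, so that position on the slide and treatment cannot be told apart. Each slide held the arrays of 1 knockout and 1 wild-type culture (3 with 6, 4 with 8 and 6 with 9), so that slide and culture are the same thing within a genotype and the genotypes shared slides. Of the 14 mast cell markers on the arrays all 14 were above the limit on at least 1 of the 6 arrays. Of the macrophage and monocyte markers 8 were above it on at least 1 array, among them Adgre1 and Lyz1 on all 6, and 11 on none, among them Csf1r, Cd14 and C1qa. Of the T and NK cell markers 4 were, among them Cd8b1, Prf1 and Eomes on all 6, and 10 were not, among them Cd3d, Cd3e and Cd3g. Of the neutrophil markers 2 were, on 1 array each, and 14 were not, among them Mpo, S100a8 and S100a9. The 3 Dnmt3a probes were above the limit on 0 of 18 arrays and gave no check of the genotype. Few arrays limit the precision. In these bulk samples fewer cells of a type and less RNA per cell cannot be told apart.

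After 24 h of IgE 149 genes were higher and 128 were lower than in untreated knockout cells, among 8985 genes tested (3.08% called, 1.66% higher and 1.42% lower). A gene was called when its adjusted p in limma was under 0.05, with the culture as a block, and every ± after a log2 change is limma's standard error (n = 3 cultures, with the spread estimated over all 18 arrays). The rises were larger than the falls. Of the higher genes 77 had changed at least 2-fold and 20 at least 4-fold, against 42 and 1 of the lower genes. All 277 called genes had the same sign in each of the 3 cultures, which 45.3% of all genes tested also had. The values of the groups did not overlap for 229 called genes, and for 18% of all genes tested. Of the called genes 24 were above the limit on no untreated array and 17 on no 24 h array, and their sizes are given as bounds. A further 31 higher genes were above it on 1 or 2 untreated arrays and 11 lower genes on 1 or 2 24 h arrays. Their log2 changes rest partly on signals below the limit.

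**Figure D1:**
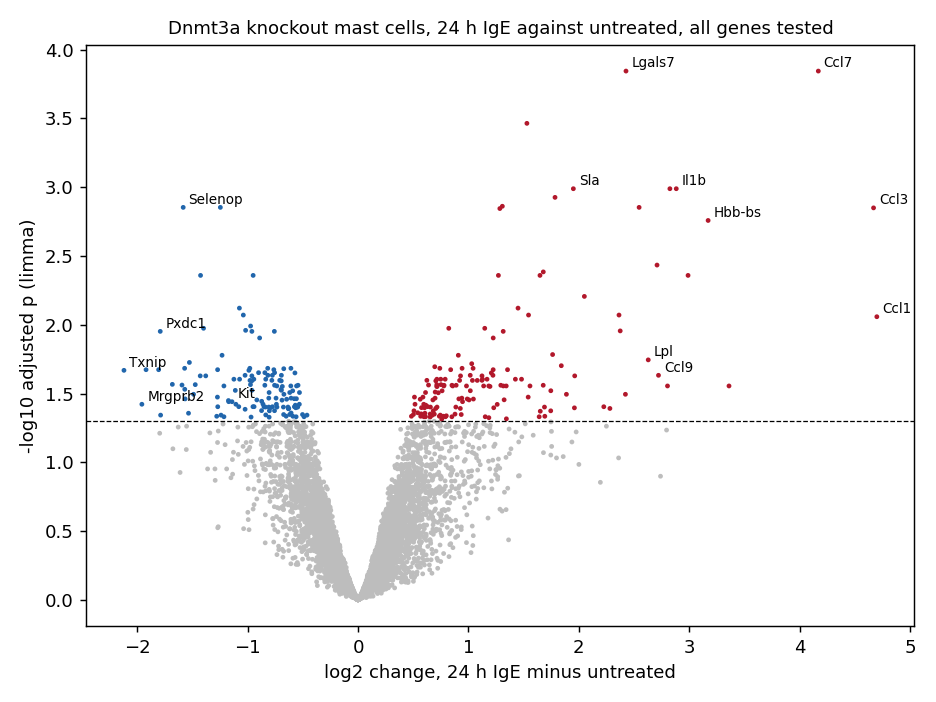
Each point is 1 of the 8985 genes tested. The x axis is the log2 change from untreated to 24 h of IgE in knockout cells and the y axis is −log10 of limma's adjusted p. Red points are the 149 genes called higher, blue points the 128 called lower, and the dashed line is the adjusted p of 0.05. The red points reach a log2 change of 4.70 (Ccl1) and the blue points −2.12 (Txnip).

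The 3 cultures did not respond equally. Over all genes the log2 changes had a SD of 0.577 in culture 3, 0.367 in culture 4 and 0.570 in culture 6. The genes called higher had a median log2 change of 1.17, 0.71 and 1.15 in the 3 cultures, and those called lower −0.90, −0.67 and −0.93. Culture 4 therefore had the smallest changes in either direction. With only 2 knockout cultures in the fit the count was 31 without culture 3, 97 without culture 4 and 19 without culture 6. It was 37 without the 24 h array of culture 6, which had the highest median signal of the 18 arrays, 123 without wild-type culture 8, which entered only the estimate of spread, and 22 without the culture block. The 10 named genes called in each fit with 1 knockout culture left out were Ccl3, Ccl7, Il1b, Hbb-bs, Clec4n, Ccn4, Lgals7, Sla, Pim3 and Selenop, while 43 of the 77 named called genes were called in none of these fits.

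Chemokines showed the largest rises. Of 14 chemokine genes tested, 6 rose and 0 fell, with a median log2 change of 0.69 against −0.0013 over all genes. All 6 were CC chemokines. Genes detected only on stimulated arrays could enter the test, and the median moved with the filter. It was 0.18 over 23 genes without a filter and 0.31 over 16 genes with a looser detection limit (share of 0.05). With detection on all 3 arrays of a compared group required, it was 2.72 over 7 genes. In each case 6 rose and 0 fell. Ccl2 and Ccl7, and likewise Ccl3 and Ccl4, are neighbours on chromosome 11, where neighbours here and in what follows are neighbours among the genes tested.

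Ccl3, which attracts monocytes and other leukocytes, had log2 intensities of 8.56, 7.0 and 9.43 in untreated cultures 3, 4 and 6, and of 13.74, 11.81 and 13.44 after 24 h. The lowest stimulated value was above the highest untreated one. The change was 25.4-fold (log2 4.67 ± 0.55, adjusted p = 0.00141). Ccl7, another attractant of monocytes, went from 10.43, 9.01 and 8.78 to 13.83, 13.13 and 13.77. These groups did not overlap either, and the stimulated cultures lay close together. Ccl7 rose 18-fold (log2 4.17 ± 0.34, adjusted p = 0.000143).

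Ccl1, the ligand of the receptor CCR8, had untreated values of 8.14, 5.99 and 6.35 and stimulated values of 11.54, 10.80 and 12.24. Only 1 untreated array, that of culture 3, had it above the limit, so the log2 change of 4.70 ± 0.73 (adjusted p = 0.00874) rests partly on signals below it. Without culture 4 or 6 its adjusted p was 0.0512 or 0.111. Ccl9, made by myeloid cells, went from 9.24, 7.91 and 10.24 to 12.49, 10.01 and 13.06 (log2 2.72 ± 0.52, adjusted p = 0.0233). The stimulated value of culture 4 was below the untreated value of culture 6, so the groups overlapped, while the rise within each culture was at least 2.10.

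Ccl4 rose by 2.05 ± 0.30 (adjusted p = 0.00622) and Ccl2 by 1.27 ± 0.18 (adjusted p = 0.00437). Both were already high without stimulation, at 10.03 to 11.67 and 9.87 to 10.9995, and their stimulated values of 12.42 to 13.74 and 11.58 to 12.07 lay above these ranges. The chemokine median was 0.70, 0.12 and 1.15 in cultures 3, 4 and 6, and 5, 4 and 2 of the list were called when culture 3, 4 or 6 was left out. Without the culture block 3 were called (Ccl1, Ccl3 and Ccl7).

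**Figure D2:**
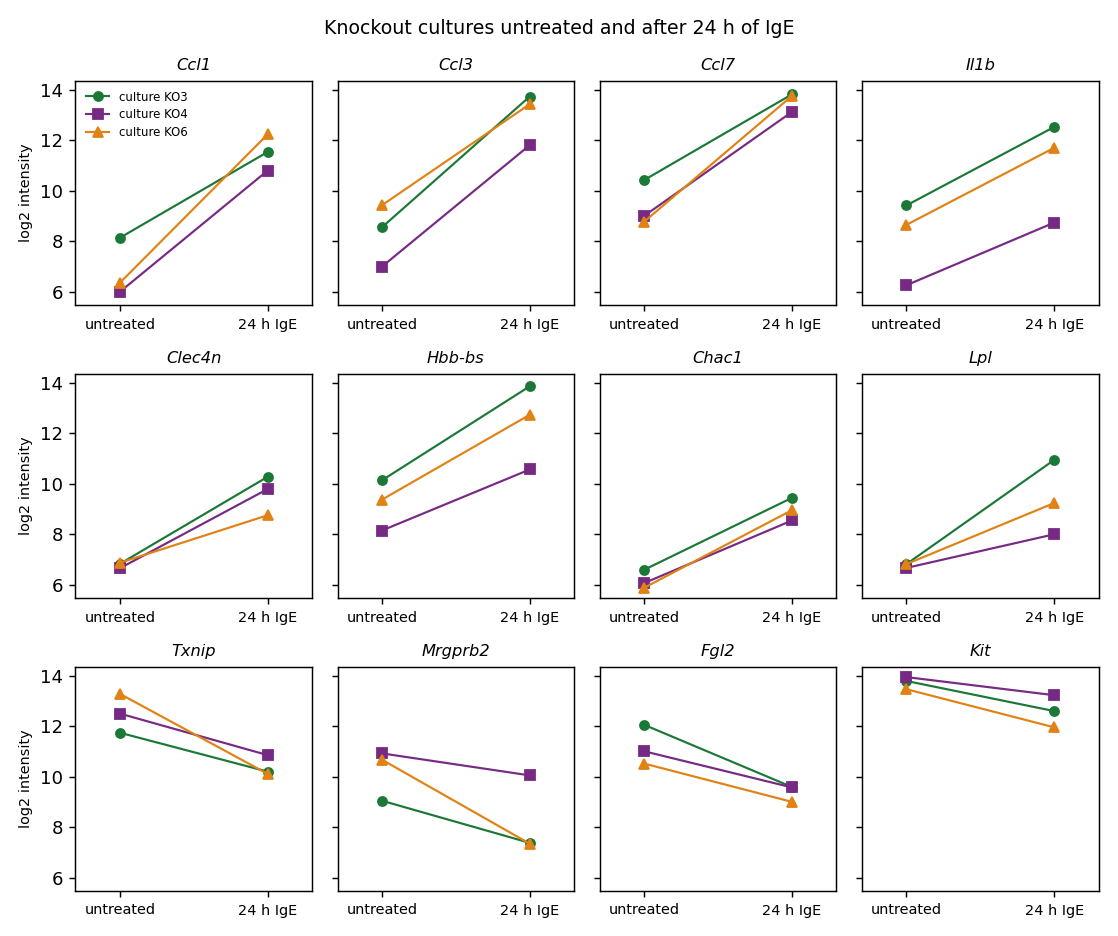
Each panel is a gene, each line a knockout culture from untreated to 24 h of IgE, and the y axis the normalised log2 intensity. Ccl1, Ccl3, Ccl7, Il1b, Clec4n, Hbb-bs, Chac1 and Lpl rise in each culture, and Txnip, Mrgprb2, Fgl2 and Kit fall in each. Culture 4 stays lowest for Il1b and Hbb-bs in either condition.

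Among 24 cytokine and growth factor genes 5 rose and 1 fell, with a median log2 change of 0.53. Without a filter on dim probes the median was 0.37 over 33 genes, of which 3 rose and 0 fell. Il1b, the secreted inflammatory interleukin, went from 9.42, 6.26 and 8.65 to 12.53, 8.74 and 11.71. The untreated value of culture 4 was below the detection limit, so the change rests partly on a signal below it. Culture 4 lay well below cultures 3 and 6 in either condition, but the cultures moved in parallel. Il1b rose by 2.88 ± 0.30 (adjusted p = 0.00102) with the culture block, and its adjusted p was 0.249 without it. Its neighbour on chromosome 2, Il1a, rose by 1.76 ± 0.30 (adjusted p = 0.0165). Csf1, the macrophage growth factor, went from 7.44, 7.34 and 7.54 to 10.04, 8.28 and 9.53 (1.84 ± 0.33, adjusted p = 0.0198). Il13, a type 2 cytokine, went from 7.05, 6.86 and 6.87 to 8.96, 7.5 and 9.56 (1.75 ± 0.37, adjusted p = 0.0302).

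In either gene culture 4 moved least. Lif, which acts through gp130, rose by 1.34 ± 0.33 (adjusted p = 0.0483). Il16, which encodes a precursor of a T cell attractant, had a log2 change of −1.27 ± 0.28 (adjusted p = 0.0336), from 9.82 to 10.41 down to 8.45 to 9.17. Another kept probe of Il16 had −0.34 and did not pass. Csf2, the granulocyte and macrophage growth factor, was above the limit on 0 untreated and 3 stimulated arrays and at least 3.79-fold higher, and it did not pass (adjusted p = 0.126). Tnf (1.36 ± 0.51, adjusted p = 0.154) and Il6 (0.70 ± 0.23, adjusted p = 0.104) did not pass either. With culture 3, 4 or 6 left out 1, 4 or 1 of the cytokines were called higher and 0 lower, and without the culture block 0 were called.

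Few early transcription factors differed from the untreated level at 24 h. Of 23 immediate early factors and MAP kinase phosphatases, 2 rose and 1 fell, and the median log2 change was 0.07. Egr3, a zinc finger factor induced by receptor signalling, had untreated values of 8.28, 7.88 and 6.79 and values near 10 in all stimulated cultures (10.14, 9.78 and 10.15), a rise of 2.37 ± 0.38 (adjusted p = 0.0111). Its relative Egr2 rose by 1.96 ± 0.38 (adjusted p = 0.0235). Klf6, a growth-related zinc finger factor, had −0.78 ± 0.16 (adjusted p = 0.0254). Of 19 NF-kB and NFAT targets and regulators 0 were called (median 0.06). With culture 3 or 6 left out 0 of the immediate early genes were called, and with culture 4 left out 2 rose. Klf6 did not pass with median scaling (adjusted p = 0.145).

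Genes for receptors and adaptors that damp immune signalling moved in both directions. Of 20 inhibitors of cytokine and receptor signalling 2 rose and 2 fell (median −0.14). Sla, a Src-like adaptor that promotes receptor turnover in lymphocytes, went from 10.85, 11.49 and 10.77 to 13.09, 13.08 and 12.80 (1.95 ± 0.21, adjusted p = 0.00102). Pilra, an inhibitory receptor with an immunoreceptor tyrosine motif, rose by 2.28 ± 0.53 (adjusted p = 0.0406). Its activating partner Pilrb1, its neighbour on chromosome 5, rose by 1.96 ± 0.46 (adjusted p = 0.0402). The adaptor Dok2, which restrains Ras signalling, rose by 2.23 ± 0.51 (adjusted p = 0.0394), and Ptpn6, which encodes the phosphatase SHP-1, by 1.13 ± 0.22 (adjusted p = 0.0249).

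Dok2 and Ptpn6 were the 2 called genes among 23 of the IgE receptor signalling list (median −0.10), and both are known to restrain receptor signals. Of this list 0 were called without culture 3 or 4 or without the culture block, and 1 without culture 6 (Ptpn6). Of the 20 inhibitors 1 (Sla) was called with any knockout culture left out or without the block, and the medians of both lists were above 0 with median scaling (0.12 and 0.03). Cd300a, an inhibitory receptor of mast cells, fell by 0.76 (SE 0.14, adjusted p = 0.0212), while its other kept probes had −0.34 and −0.15 and did not pass. Lilrb4a fell by 0.46 (SE 0.11, adjusted p = 0.0454), with its other probe of the opposite sign. Neither fall passed with median scaling (adjusted p = 0.0671 and 0.405).

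Lectin receptors and a PD-1 ligand rose. Of 15 immune co-receptors and C-type lectins 4 rose and 0 fell (median 0.22). Clec4n, which encodes the fungal sensor dectin-2, had 6.82, 6.65 and 6.87 in untreated cultures, at or near the detection limit, and 10.28, 9.79 and 8.75 after 24 h. The rise was 2.82 ± 0.30 (adjusted p = 0.00102), larger in cultures 3 and 4 than in culture 6. Its neighbour Clec4d on chromosome 6 rose by 0.85 ± 0.21 (adjusted p = 0.0467, and 0.137 without the culture block). The galactose-type lectin gene Clec10a rose by 1.32 ± 0.21 (adjusted p = 0.0112). Pdcd1lg2, which encodes the PD-1 ligand PD-L2, rose by 1.68 ± 0.23 (adjusted p = 0.00413), from 6.63 to 8.24 up to 8.36 to 9.75. With culture 3, 4 or 6 left out 2, 4 or 1 of the list were called.

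Several genes of the mast cell surface fell. Of 28 mast cell receptors and lineage regulators 1 rose (Pilrb1) and 5 fell, with a median log2 change of −0.35 (−0.20, −0.26 and −0.45 in cultures 3, 4 and 6). Kit, the receptor for stem cell factor on which mast cells depend, was among the brightest genes, with 13.80, 13.95 and 13.47 in untreated cultures. After 24 h it had 12.60, 13.23 and 11.96, below every untreated value, a log2 change of −1.14 ± 0.26 (adjusted p = 0.0363).

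Mrgprb2, the receptor through which basic peptides and drugs activate mouse mast cells, had the largest fall of the list. Its values were 9.05, 10.93 and 10.68 before and 7.38, 10.05 and 7.35 after stimulation. It fell by 3.33 in culture 6 and by 0.87 in culture 4, and the mean fall was 1.96 (SE 0.44, adjusted p = 0.0378). Il4ra, the receptor chain shared by the interleukins 4 and 13, fell by 0.97 (SE 0.24, adjusted p = 0.0469). The lineage factor Tal1 fell by 0.90 (SE 0.17, adjusted p = 0.0223) and the activating receptor Cd200r3 by 0.74 (SE 0.17, adjusted p = 0.0378).

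The IgE receptor itself was not among these genes. Its alpha chain gene Fcer1a had a log2 change of 0.10 ± 0.12 (adjusted p = 0.678) and its beta chain gene Ms4a2 one of −0.09 ± 0.27 (adjusted p = 0.884). With any knockout culture left out, or without the culture block, 0 of the 28 genes were called, and without wild-type culture 8 only 1 was. Median scaling, which placed the median of all genes at 0.138, gave 2 higher and 2 lower.

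Of 15 granule protease and proteoglycan genes 0 rose and 1 fell (median 0.03). This was Chst15, which sulfates granule proteoglycans (fall of 0.84, SE 0.16, adjusted p = 0.0249, and 0.0686 with median scaling). The chymase genes Mcpt4 (2.20 ± 0.79, adjusted p = 0.14) and Cma2 (2.0 ± 0.64, adjusted p = 0.104) and the tryptase gene Tpsab1 (−1.56 ± 0.46, adjusted p = 0.0808) had changes of more than 2-fold that did not pass. For Mcpt4 the cultures went opposite ways, with 6.18, 9.34 and 6.22 before and 10.83, 8.82 and 8.67 after stimulation in cultures 3, 4 and 6. Mcpt4 was above the limit on 1 untreated and 3 stimulated arrays. In lipid mediator synthesis Ltc4s, which makes leukotriene C4, rose by 0.91 ± 0.16 (adjusted p = 0.0167), and Alox5ap, which presents arachidonic acid to the upstream lipoxygenase, fell by 0.87 (SE 0.20, adjusted p = 0.036). The histamine-forming enzyme gene Hdc had 0.92 ± 0.37 (adjusted p = 0.178).

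The adult beta globin genes Hbb-bs and Hbb-bt, neighbours on chromosome 7, were among the largest rises. Their promoters are shown because these genes moved together. Each window runs from 250 bases before to 50 bases from the RefSeq start on, on GRCm38.p6, 5′ to 3′ on the gene's strand. Capitals mark matches on either strand to any of the motifs searched, which were the CACCC box CCACACCC, GATA as AGATAA, the CCAAT box CCAAT, the TATA box TATAAA, the C/EBP-ATF element TGATGNAA, AP-1 as TGANTCA, EGR as GCGTGGGCG and NF-kB by its consensus. No match shown overlaps another.
Hbb-bs (chr7:103827879-103828178, minus strand): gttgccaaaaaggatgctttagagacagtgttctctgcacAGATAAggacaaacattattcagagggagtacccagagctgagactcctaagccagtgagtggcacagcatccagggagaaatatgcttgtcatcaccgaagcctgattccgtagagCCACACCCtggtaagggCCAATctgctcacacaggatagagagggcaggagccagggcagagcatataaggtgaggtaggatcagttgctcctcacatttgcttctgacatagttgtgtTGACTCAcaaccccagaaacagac
Hbb-bt (chr7:103813874-103814173, minus strand): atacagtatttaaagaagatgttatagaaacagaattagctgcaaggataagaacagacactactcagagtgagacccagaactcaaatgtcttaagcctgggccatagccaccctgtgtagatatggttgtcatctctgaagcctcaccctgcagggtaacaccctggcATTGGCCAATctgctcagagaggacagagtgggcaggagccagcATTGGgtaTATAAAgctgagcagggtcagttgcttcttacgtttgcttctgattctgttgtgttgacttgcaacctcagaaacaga
The Hbb-bs window holds AGATAA at −210 to −205, CCACACCC at −93 to −86, CCAAT at −76 to −72 and the AP-1 match TGACTCA at 27 to 33, counted from the start base as 1, and the Hbb-bt window has CCAAT at −75 to −71 and TATAAA at −28 to −23. Over their best ungapped alignment 168 of 299 bases (56.2%) are identical.

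Hbb-bs had 10.14, 8.15 and 9.37 in untreated cultures 3, 4 and 6 and 13.87, 10.57 and 12.74 after 24 h, a rise of 3.17 ± 0.39 (adjusted p = 0.00174). Hbb-bt went from 9.38, 7.82 and 9.05 to 13.32, 9.89 and 12.004 (2.99 ± 0.42, adjusted p = 0.00437, and 0.0641 or 0.0598 without culture 3 or 6). Every stimulated value was above every untreated value for both genes, and the cultures kept their order, with culture 3 highest and culture 4 lowest. Probes of near-identical globin genes may share signal, so that the pair is not 2 independent measurements. In wild-type cells the log2 change was 0.89 for Hbb-bs and 1.07 for Hbb-bt (adjusted p = 0.188 and 0.14), and the difference between the genotypes did not pass for either gene.

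Klf1, the erythroid factor that binds CACCC boxes, was above the limit on 0 untreated and 3 stimulated arrays and was at least 1.64-fold higher (adjusted p = 0.0279). Of the 8 erythroid markers tested these 3 rose and 0 fell (median 0.58). The median was 0.21 over 13 markers with a looser detection limit (share of 0.05) and 0.17 over 16 markers without a filter. In both cases 3 rose and 0 fell. The summed intensity of the tested markers ran from 3635 to 6486 on the untreated arrays and from 6863 to 28921 at 24 h, and their part in the result was not tested. Of the erythroid markers on the arrays 8 were above the limit on at least 1 of the 6 arrays, with Gfi1b, Tfrc and Car2 on all 6 besides the beta globins, and Epor and Hba-a1 on 1 untreated and 2 stimulated arrays. The other 8, among them Alas2, Slc4a1, Rhag, Epb42, Car1 and Hemgn, were above it on none. Without culture 3, 4 or 6 the count of erythroid markers called was 2, 2 or 1 (Hbb-bs in each), and without the culture block it was 0.

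A few genes of the response to amino acid shortage and unfolded protein rose. Cells under such stress translate the factor ATF4, which acts with C/EBP family partners on elements of the form searched here. Of 34 genes of this response 3 rose and 0 fell, and the median log2 change was 0.51 (0.74, 0.18 and 0.54 in cultures 3, 4 and 6). The promoters of the 2 genes that rose most are shown with the same motifs in capitals.
Chac1 (chr2:119350992-119351291, plus strand): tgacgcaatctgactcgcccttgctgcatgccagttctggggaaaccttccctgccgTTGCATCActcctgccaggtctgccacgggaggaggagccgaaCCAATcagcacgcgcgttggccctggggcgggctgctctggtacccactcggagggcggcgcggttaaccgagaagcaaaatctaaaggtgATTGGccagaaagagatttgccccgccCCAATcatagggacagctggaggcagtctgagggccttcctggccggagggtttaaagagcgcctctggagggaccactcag
Trib3 (chr2:152344011-152344310, minus strand): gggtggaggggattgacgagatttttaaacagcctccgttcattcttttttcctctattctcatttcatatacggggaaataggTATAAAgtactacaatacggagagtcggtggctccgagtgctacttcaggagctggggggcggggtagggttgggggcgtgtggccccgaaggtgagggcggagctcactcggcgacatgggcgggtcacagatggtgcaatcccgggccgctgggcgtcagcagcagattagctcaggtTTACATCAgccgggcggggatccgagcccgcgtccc
Each window holds 1 match to the C/EBP-ATF element on the opposite strand, TTGCATCA at −193 to −186 in Chac1 and TTACATCA at 15 to 22 in Trib3. Of all 32851 RefSeq windows of this length 3.97% hold a match.

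Chac1, which degrades glutathione, was above the limit on no untreated array, and went from 6.59, 6.06 and 5.88 to 9.44, 8.55 and 8.96. It was at least 4.75-fold higher (adjusted p = 0.0279). Trib3, a pseudokinase induced by ATF4, went from 8.01, 7.91 and 6.68 to 10.54, 9.87 and 9.46 (2.42 ± 0.52, adjusted p = 0.032). Other kept probes of Trib3 had changes of 0.81 and did not pass (adjusted p = 0.0725 and 0.0643). Psat1, an enzyme of serine synthesis, rose by 1.23 ± 0.29 (adjusted p = 0.0401). In all 3 genes the groups did not overlap, which also held for 229 of the 277 called genes and 18% of all genes tested. With any knockout culture or wild-type culture 8 left out, or without the culture block, 0 of the 34 genes were called.

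In lipid and sugar metabolism 1 or 2 genes of each list were called, and the list medians were positive except for cholesterol export. The share called was 11.8% for cholesterol synthesis and uptake and for fatty acid synthesis. It was 16.7% for cholesterol export and 4% for glycolysis and hypoxia, against 3.08% of all genes. Of 17 cholesterol synthesis and uptake genes 16 had positive changes, with the highest median of the lists (0.79, and 1.41, 0.52 and 0.69 in cultures 3, 4 and 6). Pmvk (1.02 ± 0.22, adjusted p = 0.0302) and Dhcr7 (0.60 ± 0.15, adjusted p = 0.0467) of the mevalonate and sterol pathway rose. Fdps (1.75 ± 0.46, adjusted p = 0.0596) and Mvd (1.51 ± 0.38, adjusted p = 0.0525) had larger changes that did not pass. With median scaling 7 of the 17 rose, and with any knockout culture left out 0 did.

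Lpl, the enzyme that frees fatty acids from lipoproteins, had 6.82, 6.67 and 6.82 before and 10.95, 8.00 and 9.24 after stimulation (2.63 ± 0.46, adjusted p = 0.018, and 0.134 or 0.127 without culture 3 or 6). In fatty acid synthesis the acyl-CoA ligase gene Acsl3 (1.19 ± 0.29, adjusted p = 0.0474) and the desaturase gene Fads2 (0.91 ± 0.20, adjusted p = 0.0346) rose, of 17 genes tested. Of 6 cholesterol export and LXR target genes the sterol carrier gene Stard5 fell by 1.11 (SE 0.24, adjusted p = 0.03) and 0 rose. The median of this list was −0.22, and 0.01 with median scaling. Of 25 glycolysis and hypoxia genes the phosphofructokinase gene Pfkl rose (1.48 ± 0.29, adjusted p = 0.0249), 21 had positive changes and the median was 0.50. Another kept probe of Pfkl had 0.34 and did not pass. Egln3, an oxygen-sensing hydroxylase, went in cultures 4 and 6 from 6.36 and 6.09 to 9.49 and 9.60, had 6.0 and 6.11 in culture 3, and did not pass (adjusted p = 0.0546). Its values in culture 3 and in untreated cultures 4 and 6 were below the detection limit.

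**Figure D3:**
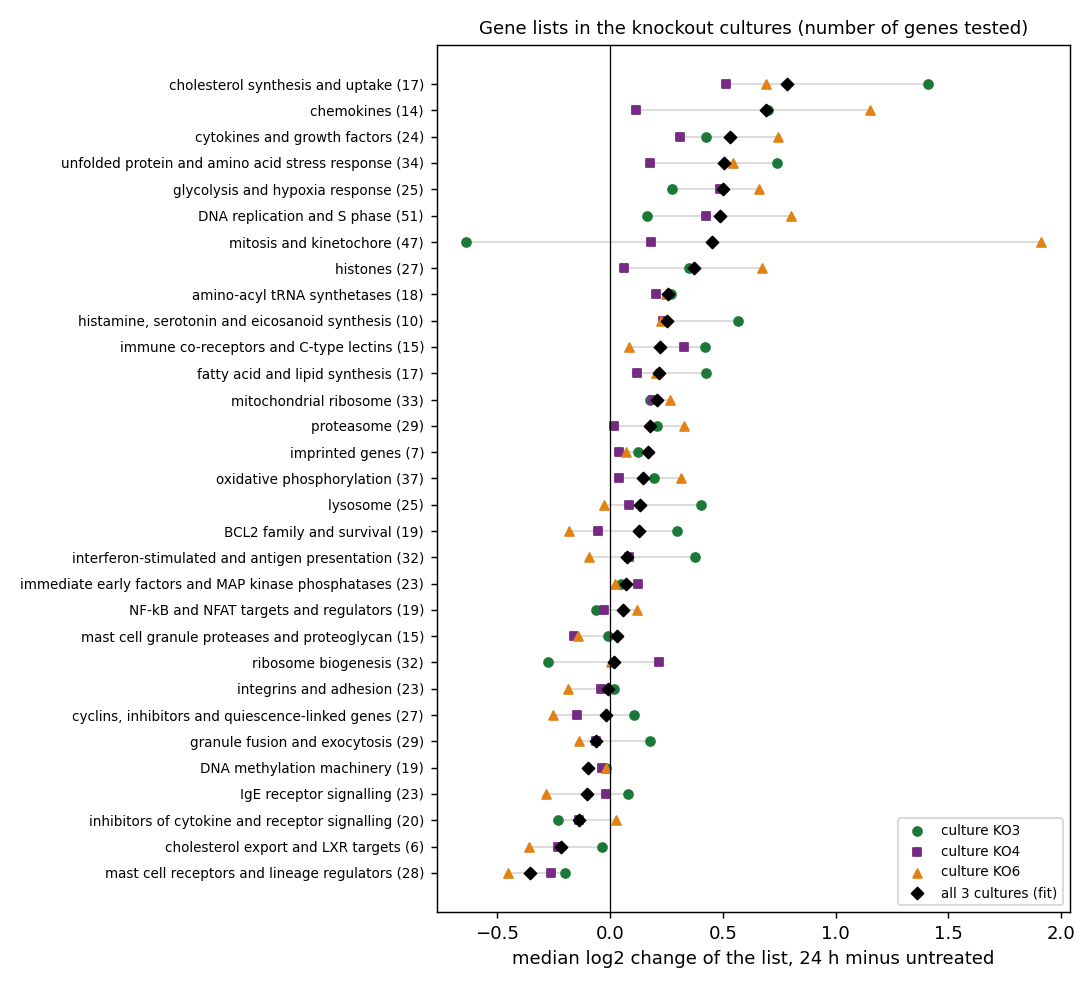
Each row is a list of genes with the number tested in brackets. The x axis is the median log2 change from untreated to 24 h over the list. Green circles, purple squares and orange triangles are knockout cultures 3, 4 and 6, and black diamonds the fit over the 3 cultures. Medians of cholesterol synthesis, chemokine, cytokine and stress response genes are positive in each culture and those of mast cell receptors negative in each, while mitosis genes run from −0.64 to 1.91.

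The cell cycle genes showed where the cultures parted. Of 47 mitosis and kinetochore genes 0 passed, although 45 had positive changes in the fit (median 0.45). The medians were −0.64 in culture 3, 0.18 in culture 4 and 1.91 in culture 6, and the fit's median was −0.21 without culture 6 and −0.09 without its 24 h array. The levels show the same: the median log2 intensity of the 47 genes went from 8.14 to 7.92 in culture 3, from 9.16 to 9.42 in culture 4 and from 7.31 to 9.41 in culture 6. Culture 6 thus began lowest, with 34 of 47 genes above the limit, and ended level with culture 4, with 44. Of 51 DNA replication genes 0 passed, with medians of 0.16, 0.42 and 0.80. At 4 h the medians of the mitosis genes were 7.31, 8.28 and 7.01, below the untreated level in each culture.

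**Figure D4:**
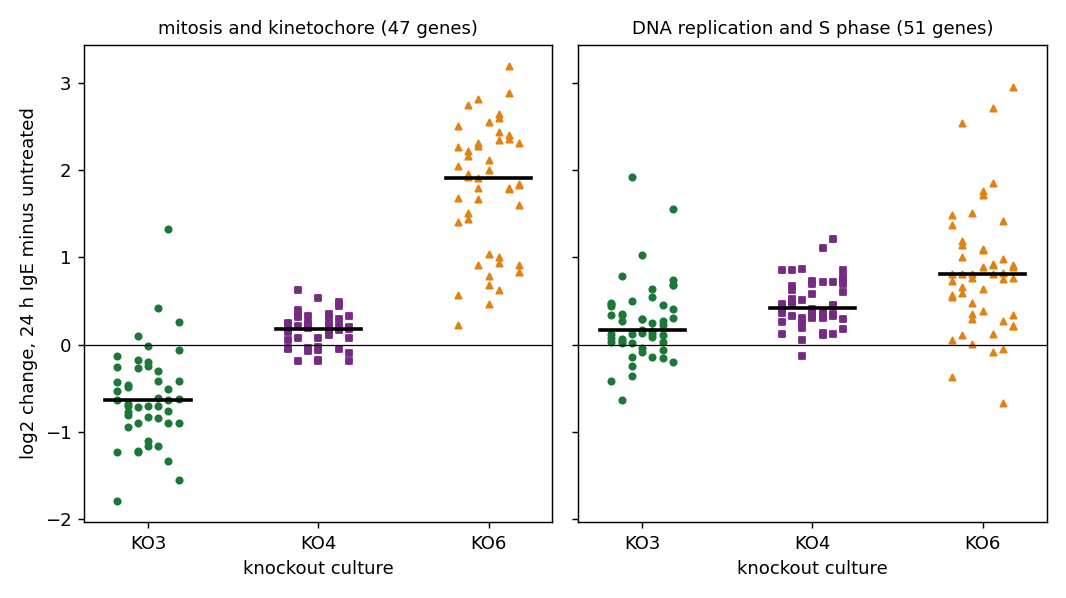
Each point is a gene of the mitosis and kinetochore list (left, 47 genes) or of the DNA replication and S phase list (right, 51 genes). The y axis is its log2 change from untreated to 24 h in knockout culture 3, 4 or 6, and black bars are medians. Mitosis genes lie around −0.64 in culture 3, near 0.18 in culture 4 and around 1.91 in culture 6.

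Of 27 histone genes H2ac8 rose (1.56 ± 0.32, adjusted p = 0.0279), and among 27 cyclins, inhibitors and quiescence-linked genes the antiproliferative factor Tob1 rose (0.80 ± 0.19, adjusted p = 0.0459) and Txnip fell. The neighbouring genes Cdkn2a and Cdkn2b on chromosome 4, which encode inhibitors of the kinases CDK4 and CDK6 and were picked after their values were seen, rose by 1.69 ± 0.41 (adjusted p = 0.0463) and 1.54 ± 0.34 (adjusted p = 0.0336). Cdkn2a went from 7.05, 7.16 and 7.63 to 10.36, 8.15 and 8.41, with the largest step in culture 3. Ribosome biogenesis, oxidative phosphorylation, proteasome, mitochondrial ribosome, granule fusion, imprinted and DNA methylation genes had 0 calls, with medians from −0.10 to 0.21.

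Txnip, which binds thioredoxin and limits glucose uptake, fell most of all called genes. It went from 11.75, 12.51 and 13.29 to 10.21, 10.86 and 10.12, a 4.35-fold fall (log2 −2.12 ± 0.39, adjusted p = 0.0214, and 0.063 to 0.144 with 1 knockout culture left out). The untreated values of the cultures were spread and the stimulated ones were close. Cyp4a12a, a fatty acid hydroxylase, went from 11.56, 11.01 and 12.01 to 9.75, 9.69 and 9.37 (−1.92 ± 0.36, adjusted p = 0.0212). Its neighbour and near copy Cyp4a12b fell by 1.47, and the probes may share signal.

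Fgl2, a fibrinogen-like protein that converts prothrombin, went from 12.06, 11.01 and 10.52 to 9.59, 9.58 and 9.00 (−1.81 ± 0.33, adjusted p = 0.0212). Selenop, the selenium carrier, went from 10.77, 9.21 and 10.10 to 9.01, 8.05 and 8.26 (−1.58 ± 0.19, adjusted p = 0.0014) and, unlike the other 14 of the 15 largest falls, was called in each fit with 1 knockout culture left out. Itgb7, the integrin chain that directs mast cell progenitors to the gut, fell by 1.57 (SE 0.29, adjusted p = 0.0207), as did the membrane protein gene Emp1 (SE 0.35, adjusted p = 0.0346). Emp1 did not pass with median scaling (adjusted p = 0.0711). The ephrin gene Efnb2 was above the limit on 3 untreated and 0 stimulated arrays and at least 1.98-fold lower (adjusted p = 0.032).

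The other large falls were Pxdc1 (−1.79 ± 0.29), the semaphorin receptor gene Plxna2 (−1.79 ± 0.43), the channel subunit gene Fam155a (−1.68 ± 0.34), the glutamate receptor gene Grm6 (−1.57 ± 0.33), Ctla2b (−1.54 ± 0.36) and the glutathione transferase gene Gstm1 (−1.53 ± 0.27), with adjusted p from 0.0112 to 0.0454. Each fell in all 3 cultures, as every gene called lower did. Ctla2b did not pass with median scaling (adjusted p = 0.0636). Singly called members of other lists were the survival gene Mcl1 (−0.61 ± 0.14), the lysosomal mannosidase gene Man2b1 (−0.84 ± 0.20), the interferon-induced gene Oasl2 (at least 1.15-fold lower) and the tRNA synthetase gene Eprs (0.61 ± 0.14, with 2 other probes of the opposite sign). None of these was called with 1 knockout culture left out. With median scaling Mcl1 and Man2b1 did not pass (adjusted p = 0.326 and 0.0575), while Oasl2 and Eprs did.

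The other large rises were Gzmd, Gm4847 and Ccn4. Gzmd, a granzyme gene with near-identical neighbours whose signal its probe may share, was at least 6.26-fold higher (adjusted p = 0.0279, and 0.0684 to 0.179 with 1 knockout culture left out) and had 10.99 in culture 3 against 8.49 and 8.66 in cultures 4 and 6. Gm4847 was at least 4.96-fold higher (adjusted p = 0.00368). Its neighbour Pogk rose by 1.15. Ccn4, a secreted matrix-associated signalling protein, was at least 4.43-fold higher (adjusted p = 0.0014).

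Few markers of other cell types could be tested. Of 6 macrophage and monocyte markers tested, Cx3cr1, the fractalkine receptor (−1.59 ± 0.33, adjusted p = 0.0274), and the lysozyme gene Lyz1 (−1.28 ± 0.31, adjusted p = 0.0463) fell and 0 rose. Of these 6 genes 0 were called without culture 3 or 6, without the culture block or with culture as a random block, and 2 without culture 4. Their summed intensity was 2106 to 2568 in untreated and 1378 to 1640 in stimulated cultures. Of 4 T and NK cell markers tested Eomes rose (1.32 ± 0.27, adjusted p = 0.0279), and the summed intensity of the 4 was 3776 to 4447 in untreated and 3902 to 5710 in stimulated cultures. The part of these cells in the results was not tested. Of 2 stroma markers Vim, which mast cells also express, fell by 1.08 (SE 0.25, adjusted p = 0.0394, and 0.125 with median scaling). With 1 knockout culture left out Eomes was called only without culture 4 and Vim in no case. Neutrophil, B cell, dendritic cell and megakaryocyte lists had 0 calls among 2, 2, 4 and 3 genes tested, and 0 eosinophil markers could be tested. Of 11 basophil markers Ccl4 and Csf1 rose and Cd200r3 fell, and all 3 are mast cell genes too. Of 8 stem cell markers Kit fell.

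Among the 8979 tested genes with a place in the gene table, called genes were neighbours 19 times. In 13 neighbouring pairs both genes rose, in 6 both fell, and in 0 they went opposite ways. Besides the pairs named above these included Sla with both Tg and Ccn4 on chromosome 15, and Stard5 with Il16 on chromosome 7. Some pairs, such as Hbb-bs with Hbb-bt and Cyp4a12a with Cyp4a12b, are related copies whose probes may share signal, and how many pairs would arise by chance was not computed. Promoters of the called genes had fewer CpG sites than those of the genes tested. Taking the first RefSeq window of each gene, the median count of CpG in 300 bases was 17 for the 119 higher and the 104 lower genes with a window, against 21 for 7369 tested genes. At least 10 CpG were present in 64.7% of the higher, 70.2% of the lower and 83.5% of the tested genes. A CACCC box was in 10.1%, 1.92% and 3.79% of these windows, NF-kB in 10.1%, 6.73% and 4.72%, EGR in 0.84%, 4.81% and 1.25%, AP-1 in 5.88%, 10.6% and 4.89% and the C/EBP-ATF element in 2.52%, 2.88% and 2.24%. CCAAT was in 38.7%, 48.1% and 39.2%, TATAAA in 12.6%, 13.5% and 7.21% and AGATAA in 9.24%, 7.69% and 6.07%. These shares are descriptions and were not tested.

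The 4 h values of the knockout cultures, which share the untreated arrays, are given beside those at 24 h. At 4 h 415 genes were called (4.62% of those tested, 2.68% higher and 1.94% lower). Ccl3 had a log2 change of 6.15 at 4 h and 4.67 at 24 h, Ccl1 of 6.35 and 4.70, and Ccl7 of 4.17 at both times. Egr2 had 3.87 and 1.96, Il13 3.35 and 1.75, and Pdcd1lg2 2.79 and 1.68. The globin gene Hbb-bs had 1.22 and 3.17, Clec4n 1.34 and 2.82, and H2ac8 0.04 and 1.56. Chemokine and cytokine medians were 2.11 and 1.5 at 4 h against 0.69 and 0.53 at 24 h.

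Setting the 24 h arrays directly against the 4 h arrays gave 574 called genes, 276 higher and 298 lower (6.39%, 3.07% and 3.32% of those tested), and 0 without culture 4 or 5 without culture 3. Higher at 24 h were the cGMP kinase substrate gene Mrvi1 (2.38), Trgv4 (2.28), 3110040M04Rik (2.24), D17H6S56E-5 (2.18) and the cohesin acetyltransferase gene Esco2 (2.08). Lower were the EGF receptor inhibitor gene Errfi1 (−3.25), the chemokine gene Xcl1 (−2.81), the retinoic acid binding protein gene Crabp2 (−2.58), the transporter gene Slc37a2 (−2.52) and the water channel gene Aqp3 (−2.36). At 24 h none of the latter 5 was called against untreated cells. Of the 14 chemokines 4 were lower at 24 h than at 4 h, of the 24 cytokines 8 and of the immediate early genes 8, while 13 replication and 3 mitosis genes were higher. Egr2 had a log2 difference of −1.91 from 4 h (adjusted p = 0.02), Il13 of −1.61 (adjusted p = 0.031) and Hbb-bs of 1.95 (adjusted p = 0.02).

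Wild-type cultures, which share slides but no array with the knockout, mostly moved the same way. The calls in both genotypes used the same estimate of each gene's spread, so that they are not independent. Of the 149 genes higher in knockout cells 145 also had a positive change in wild-type cells at 24 h, with a median of 0.70, and 58 were called there. Of the 128 lower genes 126 had a negative change (median −0.73) and 74 were called. Over all genes tested the share of equal sign was 74.4%, and 4.65% were called in wild-type cells (2.1% higher and 2.55% lower). The 6 exceptions, listed without regard to size, were Eomes, 6430571L13Rik, Catsperd and Tmem41b, which rose in knockout cells, and Ddx10 and Ppp1cb, which fell. For none of these did the difference between genotypes pass. Ccl7 rose by 4.79 in wild-type cells against 4.17, Clec4n by 3.34 against 2.82, Fgl2 fell by 1.82 against 1.81, and the list medians were 0.29 against 0.69 for chemokines and 0.15 against 0.53 for cytokines.

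The test of the difference itself, in which the wild-type response was subtracted from that of the knockout, passed for 1 gene of 8985 (0.0111%), Lgals7. At an unadjusted p under 0.05 there were 306 genes (3.41%). Lgals7 encodes galectin-7, a lectin known from stratified epithelia. Its promoter is shown because it was the only gene past this test, and it holds 0 matches to the motifs searched and 5 CpG sites.
Lgals7 (chr7:28864136-28864435, plus strand): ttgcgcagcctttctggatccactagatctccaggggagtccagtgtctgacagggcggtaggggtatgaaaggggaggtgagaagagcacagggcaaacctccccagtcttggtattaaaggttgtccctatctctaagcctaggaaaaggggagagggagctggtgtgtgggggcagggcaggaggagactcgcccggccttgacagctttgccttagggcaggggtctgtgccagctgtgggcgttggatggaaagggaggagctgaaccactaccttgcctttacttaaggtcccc
In knockout cultures 3, 4 and 6 Lgals7 had 8.03, 7.08 and 7.84 untreated and 10.56, 8.86 and 10.82 at 24 h, a 5.38-fold rise (log2 2.43 ± 0.20, adjusted p = 0.000143). Other kept probes of Lgals7 rose less (log2 1.11 and 1.82) and also passed. At 4 h the brightest probe, which stands for the gene here, lay between, at 9.81, 7.90 and 9.77. In wild-type cultures it was above the detection limit on no untreated and no 24 h array, with values of 6.23 to 6.35 and 6.30 to 6.39, so that no wild-type change could be measured. The fitted log2 difference in response was 2.38 ± 0.28 (adjusted p = 0.0162), a value that takes wild-type signals below the limit as they stand and is therefore not a measured difference between 2 responses. This adjusted p was above the threshold without knockout culture 3 or 6 (adjusted p = 0.227 and 0.138), without any wild-type culture (0.113 to 0.317), without the 24 h array of culture 6 (0.0756), without the culture block (0.9997), with slide as the block (0.939) or with culture as a random block at an estimated correlation (0.617), and below it without knockout culture 4 (0.00178).

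The next genes by p did not pass. Ccn4 had a difference of 2.45 ± 0.42 (adjusted p = 0.357) and was above the limit on no untreated or 24 h wild-type array. The succinate receptor gene Sucnr1 had 1.46 ± 0.33, the kinase gene Pim3 0.98 ± 0.20 and the monoamine oxidase gene Maob −0.87 ± 0.19, with adjusted p from 0.981 to 0.999. Within the knockout Sucnr1 was at least 2.35-fold higher at 24 h (adjusted p = 0.00437), Pim3 rose by 1.53 ± 0.14 (adjusted p = 0.000343) and Maob did not pass (−0.49 ± 0.13, adjusted p = 0.0622).

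**Figure D5:**
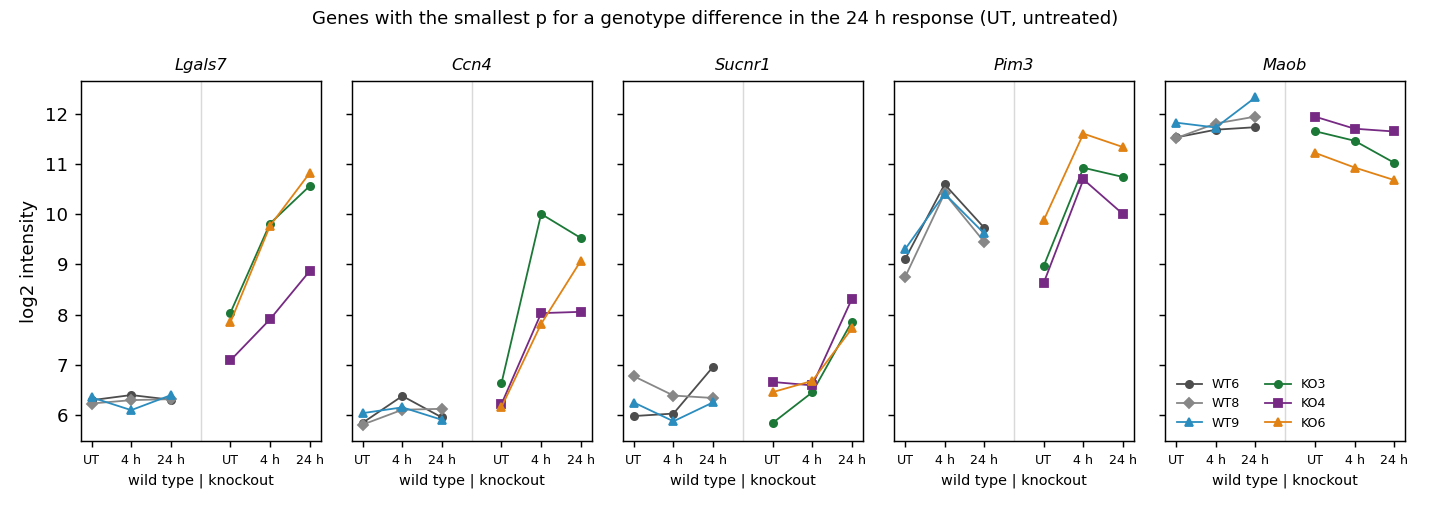
Each panel is a gene, and each line a culture through untreated, 4 h and 24 h of IgE, wild-type cultures on the left and knockout cultures on the right. The y axis is the normalised log2 intensity. Lgals7 and Ccn4 stay at 6.40 or below on the wild-type arrays and climb in each knockout culture, Pim3 rises in both genotypes, and Maob is lower at 24 h in each knockout culture, by 0.30 to 0.63.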

How the data were processed

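Probe intensities of 18 arrays (45281 probes) were used as deposited, on a linear scale and without normalisation; the labels' protocols give the Ambion TotalPrep kit, and the scanner software is not given in the sources used here. Log2 values that the authors also deposited equalled quantile normalised log2 intensities within 0.000556 (median 6.92, no centring of genes) and served as an alternative. Intensities were corrected with normexp (offset 50), quantile normalised, put on the log2 scale and fitted with limma 3.58.1 in R 4.3.3, with 6 group means over all 18 arrays and the culture as a fixed block (8 residual degrees of freedom). Every adjusted p is limma's, two-sided, Benjamini-Hochberg adjusted over 8985 genes. No detection p was used. A probe was above an array's detection limit when at most 0.01 of 1504 olfactory and vomeronasal receptor probes were as bright, and was kept when this held on at least 3 arrays (16669 probes). Platform annotation gave 1 symbol to 34885 probes, several to 18 and none to 10378, and 2596 kept probes without a single symbol were not used. The brightest kept probe stood for a gene. Where no array of the dimmer group exceeded the limit, the bound on the fold uses, per array, the higher of the lowest detected signal and the probe's own.

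Same-numbered arrays deviated together in 18 of 18 pairs (correlation 0.134 to 0.625), and the numbers in the titles were read as cultures, which the labels do not state. Within a genotype the arrays of a number shared a slide, so that these correlations cannot tell a culture from a slide. Named genes were the 15 largest rises and falls, the called members of each list, the 2 largest changes of a list and the 5 largest of the other comparisons. The members and lists were chosen with earlier results of these data known. The script was tested on simulated data. Promoter sequences are RefSeq's (GRCm38.p6). Alternatives changed the background correction, scaling, filter, block and cultures.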

Additional observations from a re-analysis of the deposited data

Results flagged for a closer look

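Lgals7 had a log2 difference in response of 2.38 (knockout minus wild type, SE 0.28, adjusted p = 0.0162 in limma), which was past the threshold of the test between the genotypes in the fit with culture as a fixed block. It was not with culture as a random block (0.617), with slide as the block (0.939), without a block (0.9997), or without knockout culture 3 (0.227) or 6 (0.138). In knockout cells it was higher at 24 h in 3 of 3 cultures, and in wild-type cells it was above the detection limit on no array, so that the wild-type change of 0.05 lies among signals below the limit and no difference between 2 measured responses was shown. The cause was not tested.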

How the results depend on the processing

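With each gene kept at its own probe, no gene called at 24 h against untreated had the opposite sign in the alternatives compared gene by gene. Where only the block changed or a whole culture was left out this was fixed in advance, since all 277 had the same sign in each culture. Other kept probes of Eprs and Lilrb4a had the opposite sign. Those of Trib3, Cd300a, Pfkl (0.34 against 1.48), Gstm1 (−0.25 against −1.53), Il16 (−0.34 against −1.27), Fads2 (0.24 against 0.91) and Gzmd (1.33 against 3.36) had smaller changes that did not pass. Those of Ccl4, Ccl7, Hbb-bs, Hbb-bt, Kit, Sla and Txnip, among others, passed. Those of Lgals7 passed with smaller changes (1.11 and 1.82 against 2.43). The counts moved. Without the replicate block the counts fell from 277 to 22 for knockout 24 h against untreated, from 574 to 62 for 24 h against 4 h, from 415 to 73 for 4 h against untreated, from 418 to 62 for wild-type 24 h and from 1 to 0 for the difference in response, which was also 0 with slide or with culture as a random block and 2 with cyclic loess. Median scaling placed the median of all genes at 0.138 and gave 476 calls (84.0% higher against 53.8%), and 1950 in wild type. Array weights gave 501, 2228, 1192 and 2239 calls for the first 4 comparisons, the knockout arrays alone 75, the 6 compared arrays alone 103, and every kept probe 891 for 24 h against 4 h. With 1 culture left out the counts ran from 19 to 258 for 24 h against untreated, from 0 to 718 for 24 h against 4 h, from 43 to 585 for 4 h against untreated, from 10 to 424 for wild type and from 0 to 1 for the difference. Without the 24 h array of knockout culture 6, an alternative chosen after seeing the data, they were 37, 330 and 0 for 24 h against untreated, against 4 h and for the difference. Of the 77 named called genes 10 passed without the block. There were 14 alternatives in which no single culture or array was left out. Clec4d and Il4ra passed in 4 of these, Lyz1 in 5, and Lif, Acsl3, Dhcr7 and Trgv4 in 6. The causes of these moves were not tested. Depth on arrays is signal over background: 214 of the genes tested were above the limit on none of the 6 arrays, and small changes near it could not be measured.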
